A study of Danio rerio with 42 samples.

Results

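The effect of a high-fat, high-cholesterol (HFHC) diet on the adult liver was examined in zebrafish that had been exposed to 0.5% EtOH as embryos. The comparison uses 10 of the 42 samples of the series, 5 livers of fish on HFHC diet and 5 livers of fish on normal diet (ND), assigned to the diets by the titles the submitters gave them. The study as a whole asked how embryonic alcohol exposure (EAE) alters metabolism and the response to a rich diet later in life. Its other samples are pools of larvae and the livers of fish exposed to 0% or 1% EtOH on the same pair of diets, 30 livers in all.

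All 10 fish were adults of the AB strain. As embryos they were kept in 0.5% EtOH, starting 12 hours after fertilization and ending on day 5, and they were then raised without EtOH, so the ND livers carry the same exposure as the HFHC livers. From day 65 the HFHC fish received 0.063 g of dry feed and 0.02 g of whole egg powder, a source of fat and of 1.7% cholesterol, per fish and day. The ND fish received 0.013 g of the same feed and no egg powder. The diets therefore differ in amount as well as in composition, and these cannot be told apart. Both were given for 8 weeks. Fish of the doses were matched by family, and each library was made from poly(A) RNA of 1 whole dissected liver, so p-values measure the spread between individual fish. Diets were given by tank and the labels do not name the tank, so effects of tank and diet cannot be told apart. The labels do not give the sex of a fish or the time of day at which its liver was taken. In its discussion the paper speaks of males when it describes the liver RNA of EAE fish on HFHC diet.

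The liver makes cholesterol from acetyl-CoA through the mevalonate pathway, whose genes are switched on by the transcription factor SREBP2 when sterols in the endoplasmic reticulum (ER) fall and are held down when sterols are plentiful. It also folds and secretes most plasma proteins in the ER, where chaperones are induced by the unfolded protein response (UPR) when the folding load rises. Hepatocytes break down amino acids, oxidize fatty acids and keep a circadian clock that is set in part by the timing of feeding.

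Reads in genes numbered 11346645 to 12549045 (median 11907370) in HFHC livers and 9795282 to 12963071 (median 11245814) in ND livers. Levels below are read counts per 1e6 reads in genes (CPM) scaled by the TMM method, and differences are log2 fold changes of HFHC livers over ND livers with their standard error (SE). Markers of hepatocytes, among them fabp10a, tfa and apoa2, summed to 149023 to 214170 CPM in HFHC livers and to 131262 to 176601 CPM in ND livers. Of 10 genes listed as signs of a female liver, the egg-yolk precursor gene vtg1 had 0.403 to 0.986 CPM in HFHC livers and 1.09 to 3.19 CPM in ND livers, and zp2.1, an egg-coat gene, was at 0 in all 10 livers. Other yolk genes of that list were higher, with 28.2 to 235 CPM in HFHC livers and 18.001 to 140.2 CPM in ND livers for vtg5, and up to 15.1 CPM in HFHC livers and 8.46 CPM in ND livers for vtg4. The sex of the fish was not assigned from these values.

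RNA of neighbouring organs was present in unequal amounts. The 11 matched intestine markers, among them fabp2, vil1 and slc15a1b, summed to 9.48, 1535, 199.8, 18.4 and 11.15 CPM in HFHC livers 1 to 5, against 4.46 to 101.4 CPM in ND livers. HFHC liver 2 thus stood far apart and HFHC liver 3 followed it, which is shown in the plot of neighbouring organs. The homeobox gene cdx1b, which defines intestine, was at 0 in 8 of the 10 livers and reached 7.08 CPM in HFHC liver 2 and 1.496 CPM in HFHC liver 3. Pancreatic enzyme genes summed to 455 to 2931 CPM in HFHC livers and to 494 to 6326 CPM in ND livers. Many results that rest on HFHC liver 2, but not all, are given with and without it.

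**Figure D1:**
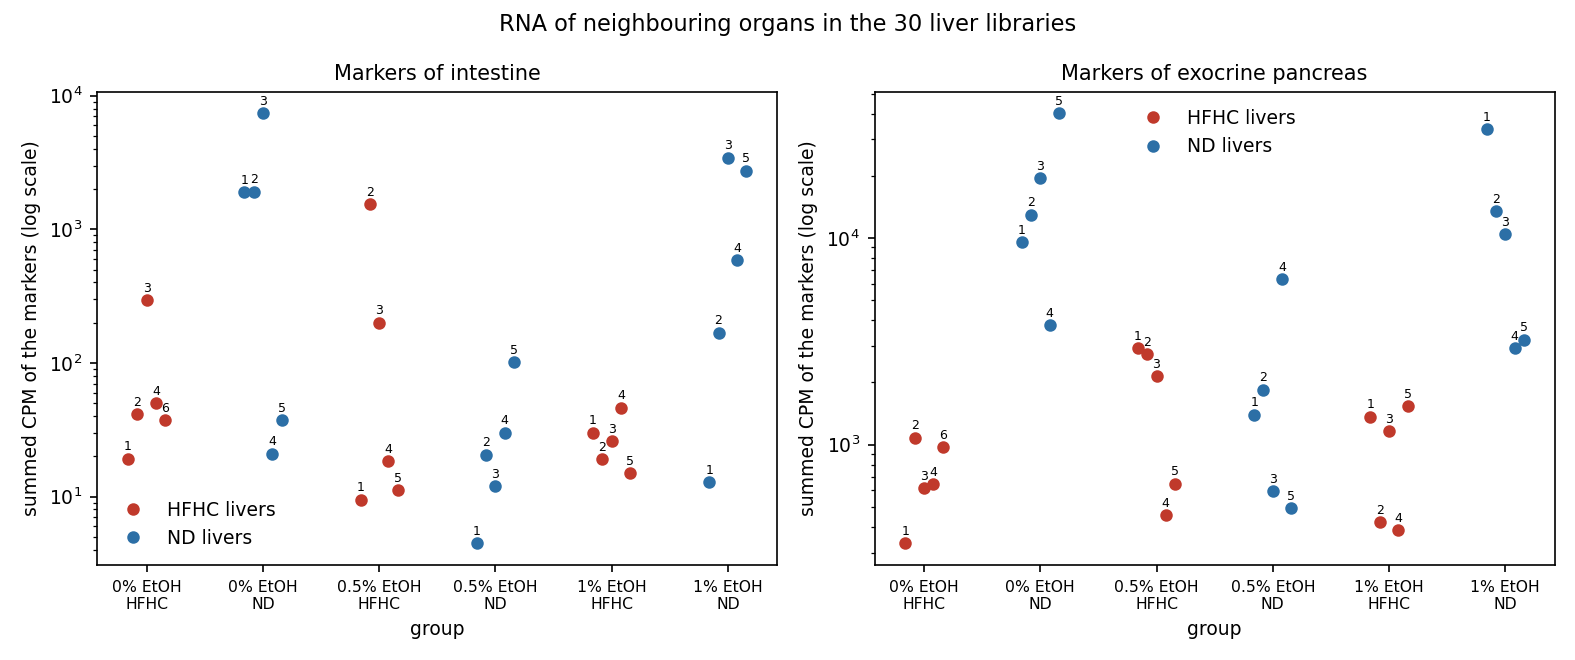
Summed CPM of intestine markers (left) and exocrine pancreas markers (right) in each of 30 livers, on log axes, with the 6 groups in order of EtOH dose and points numbered by replicate. Among 0.5% EtOH livers, HFHC liver 2 holds 1535 CPM of intestine markers, while at 0% and 1% EtOH the high values are in ND livers.

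No gene passed the threshold. Of 12287 genes with enough counts to be tested, the quasi-likelihood F test of edgeR gave 0 with a Benjamini-Hochberg adjusted p under 0.05 (0% called), and the smallest adjusted p was 0.0896. An adjusted p under 0.1 was reached by 44 genes, of which 32 were higher and 12 lower on HFHC diet. At an unadjusted p under 0.05 there were 1727 genes, 14.1% of those tested, where 614 would be by chance. Of these, 969 were higher (7.89%) and 758 lower (6.17%). Without HFHC liver 1 there were 1999 genes at that p, 1108 higher and 891 lower. Without HFHC liver 2 there were 1443 (11.6%), 795 higher (6.37%) and 648 lower (5.19%). Counts in gene lists without either liver, given below, are to be read beside these counts over all genes. The CPM ranges of the groups did not overlap for 365 genes (2.97%), 196 of them higher (1.6%) and 169 lower (1.38%). The median log2 fold change of all genes was 0.00 and 50.1% of genes were higher after TMM scaling, which itself centres most genes near 0. The common coefficient of biological variation between livers of a group was 34.3%. DESeq2 called 350 genes at an adjusted p under 0.05 on the same counts, 249 of them higher and the rest lower on HFHC diet. In bulk RNA, fewer cells of a type and less RNA per cell cannot be told apart, here and in all results that follow.

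The genes with the smallest p-values and groups that did not overlap spanned the cytoskeleton, the matrix, the clock, stress signalling and amino acid use. All 10 of them had an adjusted p of 0.0896, and their levels in every liver are plotted. The gene for gelsolin, gsna (chromosome 21, 17535785 to 17566546, on GRCz10), whose protein severs actin filaments, had 32.7, 35.3, 37.2, 31.4 and 31.1 CPM in HFHC livers 1 to 5, against 13.0, 17.97, 13.3, 15.99 and 19.3 CPM in ND livers 1 to 5. Its lowest HFHC liver lay well above its highest ND liver, with a log2 fold change of 1.07 ± 0.14 (SE). The matrix gene postna (chromosome 10, 25800483 to 25856141), a periostin, had 2.59, 1.47, 3.25, 3.12 and 2.91 CPM in HFHC livers 1 to 5, against 0.767, 0.870, 0.806, 0.908 and 0.790 CPM in ND livers 1 to 5. HFHC liver 2 was lowest in its group but still above every ND liver, and the log2 fold change was 1.68 ± 0.26 (SE).

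The clock repressor gene cry1bb (chromosome 22, 748818 to 792003) had 25.4, 25.0, 27.6, 21.7 and 28.2 CPM in HFHC livers 1 to 5, against 13.3, 15.1, 9.97, 15.2 and 14.7 CPM in ND livers 1 to 5. Its log2 fold change of 0.91 ± 0.15 (SE) was the smallest among the 5 higher genes, with little spread inside either group. The stress gene ddit4 (chromosome 12, 48356811 to 48358937), whose protein restrains the growth kinase mTORC1, had 63.2, 14.4, 40.1, 26.0 and 21.5 CPM in HFHC livers 1 to 5, against 6.99, 7.63, 5.14, 9.08 and 5.68 CPM in ND livers 1 to 5. HFHC liver 1 was highest and HFHC liver 2 lowest, and the log2 fold change was 2.26 ± 0.36 (SE). The gene man1b1b (chromosome 5, 28579921 to 28595276) codes for an ER mannosidase that trims sugars on misfolded glycoproteins. It had 13.8, 9.27, 19.2, 22.4 and 15.8 CPM in HFHC livers 1 to 5, against 4.01, 5.12, 8.16, 6.09 and 4.53 CPM in ND livers 1 to 5, and its log2 fold change was 1.53 ± 0.26 (SE).

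Among the lower genes, fgf19 had the greatest fold. In mammals its product is a gut hormone that holds down bile acid synthesis in the liver. In these fish fgf19 (chromosome 7, 54372353 to 54375912) had 0, 0.260, 0, 0.380 and 0.0938 CPM in HFHC livers 1 to 5, against 2.05, 1.74, 1.91, 2.72 and 2.95 CPM in ND livers 1 to 5. HFHC livers 1 and 3 had no count at all, every ND liver had some, and the log2 fold change of -3.81 ± 0.58 (SE) depends on the prior count of the fit. The mitochondrial enzyme gene glud1a (chromosome 13, 22548634 to 22568574), which turns glutamate into 2-oxoglutarate, had 39.5, 33.5, 40.4, 46.4 and 31.3 CPM in HFHC livers 1 to 5, against 69.8, 65.5, 62.0, 73.3 and 74.4 CPM in ND livers 1 to 5. Its log2 fold change was -0.85 ± 0.13 (SE). The gene bhlhe40 (chromosome 11, 35497669 to 35501340), a repressor in the clock, had 63.5, 31.8, 40.1, 26.4 and 38.5 CPM in HFHC livers 1 to 5, against 199.6, 95.5, 117, 212 and 91.8 CPM in ND livers 1 to 5. ND livers 1 and 4 were well above the other ND livers, all 5 HFHC livers lay below every ND liver, and the log2 fold change was -1.84 ± 0.31 (SE).

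The most abundant gene of this set was bhmt (chromosome 21, 94310 to 99421), whose enzyme remethylates homocysteine to methionine with betaine. It had 4040.5, 1749, 4329, 3667 and 4533 CPM in HFHC livers 1 to 5, against 9790.0, 7669, 8492, 10025 and 10142 CPM in ND livers 1 to 5. HFHC liver 2 was lowest by far, the groups did not overlap, and the log2 fold change was -1.33 ± 0.23 (SE), or -1.15 without HFHC liver 2. The gene cirh1a (chromosome 18, 14651032 to 14664796), needed for the processing of ribosomal RNA, had 17.4, 20.2, 18.5, 16.9 and 18.9 CPM in HFHC livers 1 to 5, against 26.9, 29.8, 29.8, 26.3 and 29.3 CPM in ND livers 1 to 5. Its log2 fold change of -0.63 ± 0.11 (SE) was the smallest in size of the 10.

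**Figure D2:**
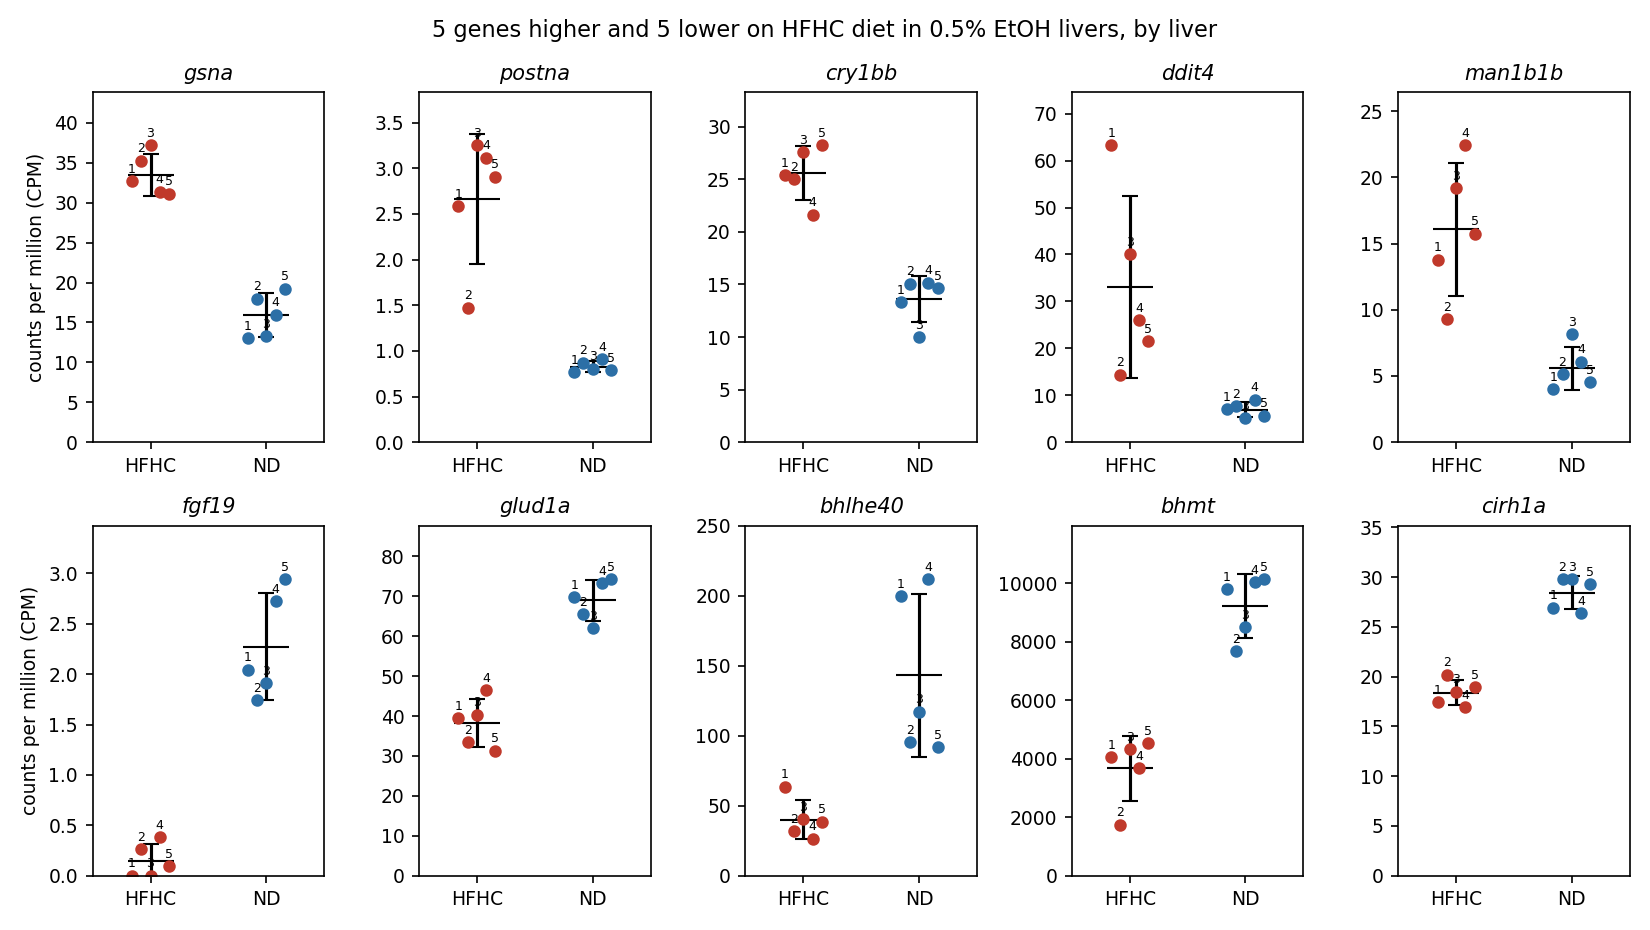
CPM (linear axes from 0) of the 5 higher genes (top) and 5 lower genes (bottom) with the smallest p-values, with HFHC livers in red and ND livers in blue, numbered by replicate, and black lines for the mean and SD of 5 livers. The groups do not overlap in any panel, which was a condition for the choice of these genes. The gene bhmt lies at 1749 to 4533 CPM in HFHC livers and 7669 to 10142 CPM in ND livers.

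Genes of cholesterol synthesis were higher on HFHC diet as a group. Of the 22 genes tested, 22 were higher and 16 of these had an unadjusted p under 0.05, or 72.7% beside 14.1% of all genes, with a median log2 fold change of 1.67. The difference was uneven between livers. The median of the list, relative to the mean of ND livers on the log2 scale, was 2.44, 2.73, 0.35, -0.08 and 0.73 in HFHC livers 1 to 5, against 0.10, 0.29, -0.23, -0.39 and 0.22 in ND livers 1 to 5. HFHC livers 1 and 2 thus carried most of it, HFHC livers 3 and 5 lay above the ND range and HFHC liver 4 lay inside it. Without HFHC liver 2 the median was 1.33, and 13 genes were higher at an unadjusted p under 0.05, where 6.37% of all genes were higher at that p. Without HFHC liver 1 it was 1.401, with 14 such genes.

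The rate-limiting enzyme gene hmgcra had 196, 199, 11.7, 2.81 and 8.54 CPM in HFHC livers 1 to 5, against 11.8, 34.01, 5.14, 9.54 and 20.05 CPM in ND livers 1 to 5. Only HFHC livers 1 and 2 were above the ND range, and HFHC liver 4 was the lowest of all 10 livers.

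HFHC livers 1 and 2 were also the highest for further steps of the pathway, though not for lbr and hmgcrb. The HMG-CoA synthase gene hmgcs1 had 213, 356, 15.1, 9.12 and 21.0 CPM in HFHC livers 1 to 5, against 9.63, 10.05, 6.95, 7.08 and 12.6 CPM in ND livers 1 to 5, a log2 fold change of 3.72 ± 0.95 (SE, adjusted p = 0.176). The squalene epoxidase gene sqlea had 85.7, 129.6, 3.09, 0.152 and 1.69 CPM in HFHC livers 1 to 5, against 0.426, 0.966, 0.302, 0.272 and 1.44 CPM in ND livers 1 to 5. HFHC livers 1 and 2 stood far above the other 8 livers, and the log2 fold change was 5.95 ± 1.52 (SE, adjusted p = 0.175). The lanosterol synthase gene lss had 57.8, 56.2, 7.30, 2.13 and 8.16 CPM in HFHC livers 1 to 5, against 2.05, 3.00, 2.62, 0.999 and 3.66 CPM in ND livers 1 to 5, and cyp51, which removes a methyl group from lanosterol, had 307, 268, 23.3, 9.12 and 32.3 CPM in HFHC livers 1 to 5, against 13.0, 31.1, 6.65, 8.72 and 19.8 CPM in ND livers 1 to 5. Neither separated the groups, since HFHC liver 4 fell among the ND livers for both, as did HFHC liver 3 for cyp51.

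Of 18 genes tested that sense, move or store sterols, 11 were higher and 7 lower, with 5 higher and 0 lower at an unadjusted p under 0.05 (27.8%, beside 14.1% of all genes) and a median log2 fold change of 0.13. The 5 became 2 without HFHC liver 2 and 3 without HFHC liver 1, while the count of higher genes over all genes went from 969 to 795 and 1108. The gene soat1 (chromosome 8, 14848747 to 14872518), whose enzyme makes cholesterol esters for storage, had 19.4, 8.67, 24.1, 16.8 and 7.78 CPM in HFHC livers 1 to 5, against 5.28, 4.44, 6.85, 7.90 and 4.24 CPM in ND livers 1 to 5. HFHC livers 1, 3 and 4 were well above the ND range, HFHC liver 2 was just above it, HFHC liver 5 lay at its upper end, and the log2 fold change was 1.42 ± 0.32 (SE, adjusted p = 0.14). The sterol sensor partner gene insig1 had 120.4, 104, 30.1, 13.4 and 40.1 CPM in HFHC livers 1 to 5, against 20.3, 35.8, 12.2, 13.6 and 44.2 CPM in ND livers 1 to 5, and srebf2, which codes for SREBP2, had 97.7, 53.3, 34.2, 21.5 and 41.3 CPM in HFHC livers 1 to 5, against 30.9, 32.9, 26.8, 24.7 and 31.6 CPM in ND livers 1 to 5. For both, HFHC livers 1 and 2 were the highest, as for the synthesis genes. The efflux pump gene abca1b had 1.41 to 5.32 CPM in HFHC livers, against 0.182 to 1.94 CPM in ND livers. The lipoprotein receptor gene scarb1 had 1.82, 36.5, 9.28, 3.50 and 4.596 CPM in HFHC livers 1 to 5, against 3.84, 4.25, 3.22, 2.18 and 3.02 CPM in ND livers 1 to 5, so its 2 highest livers were those with the most intestine markers, and its log2 fold change was 1.75 with and 0.55 without HFHC liver 2.

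**Figure D3:**
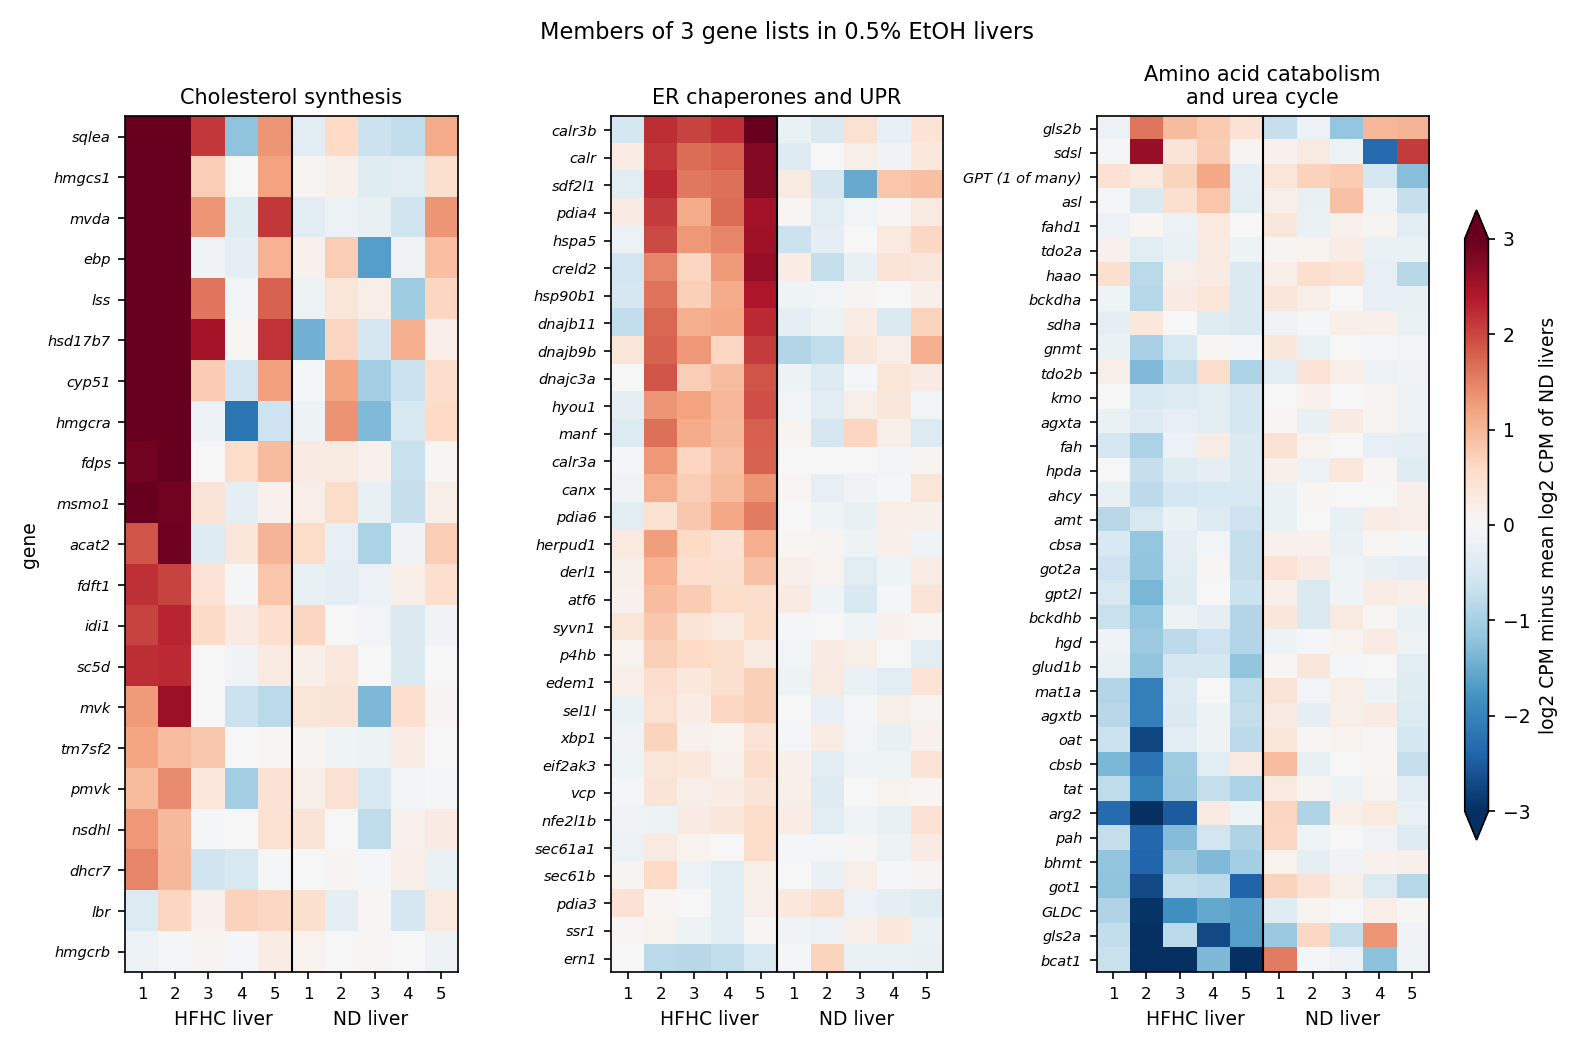
Heat maps of log2 CPM minus the mean of the ND livers for members of 3 gene lists (rows), with HFHC livers 1 to 5 left of ND livers 1 to 5 and colours limited to -3 and 3. Most genes of cholesterol synthesis are red in HFHC livers 1 and 2, most ER chaperones are red in HFHC livers 2 to 5 and near 0 in HFHC liver 1, and most genes of amino acid catabolism are blue in HFHC livers and darkest in HFHC liver 2.

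ER chaperones and other genes of the unfolded protein response were also higher together. Of 31 tested, 29 were higher and 2 lower, with 22 higher and 1 lower at an unadjusted p under 0.05 (74.2% of members, beside 14.1% of all genes) and a median log2 fold change of 0.78. By liver, the median of the list was -0.06, 1.05, 0.63, 0.61 and 1.096 in HFHC livers 1 to 5, against -0.01, -0.17, -0.05, -0.02 and 0.22 in ND livers 1 to 5. HFHC liver 1, which had high cholesterol genes, lay inside the range of ND livers here, and the other 4 lay above all ND livers. The median was 0.64 without HFHC liver 2 and 0.89 without HFHC liver 1.

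The list was led by calr (chromosome 8, 16546627 to 16556779), which codes for calreticulin, a lectin chaperone that also buffers calcium in the ER. It had 22.4, 84.3, 61.6, 67.6 and 130.5 CPM in HFHC livers 1 to 5, against 14.7, 19.4, 21.7, 17.8 and 24.1 CPM in ND livers 1 to 5. HFHC livers 2 to 5 exceeded every ND liver, HFHC liver 1 did not, and the log2 fold change was 1.91 ± 0.36 (SE, adjusted p = 0.0896). The disulfide isomerase gene pdia4 had 15.4, 55.7, 28.3, 41.7 and 75.4 CPM in HFHC livers 1 to 5, against 13.5, 10.4, 12.3, 13.5 and 15.7 CPM in ND livers 1 to 5. The master chaperone gene hspa5 (chromosome 5, 2440676 to 2448586), also known as BiP, had 34.01, 152, 94.0, 106 and 225 CPM in HFHC livers 1 to 5, against 24.3, 31.7, 38.4, 46.9 and 59.4 CPM in ND livers 1 to 5. HFHC liver 5 was highest, HFHC liver 1 lay inside the ND range, and the log2 fold change was 1.60 ± 0.42 (SE, adjusted p = 0.177). The chaperone gene hsp90b1 had 44.9, 200.3, 105, 139 and 347 CPM in HFHC livers 1 to 5, against 58.8, 60.5, 67.5, 63.2 and 71.8 CPM in ND livers 1 to 5. For it too HFHC liver 5 was highest and HFHC livers 2 to 5 were above every ND liver, while HFHC liver 1 was below every ND liver.

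The groups did not overlap for 2 of the 31 genes, both of protein degradation at the ER, where 1.6% of all genes were higher without overlap. The gene herpud1, part of the complex that exports misfolded proteins from the ER, had 24.7, 48.0, 30.3, 26.9 and 43.0 CPM in HFHC livers 1 to 5, against 20.7, 21.1, 17.9, 22.1 and 18.5 CPM in ND livers 1 to 5. The ubiquitin ligase gene syvn1 of the same complex had 19.8, 26.95, 20.2, 18.5 and 22.7 CPM in HFHC livers 1 to 5, against 14.9, 15.4, 14.2, 16.9 and 15.95 CPM in ND livers 1 to 5. Every HFHC liver was above every ND liver for both, with log2 fold changes of 0.78 ± 0.19 (SE) and 0.48 ± 0.13 (SE). The 1 member that was lower at an unadjusted p under 0.05 was ern1, which codes for the sensor IRE1, with 18.4 to 32.2 CPM in HFHC livers, against 28.0 to 52.1 CPM in ND livers. The other ER stress sensor genes were at 44.7 to 77.8 CPM in HFHC livers, against 29.6 to 54.1 CPM in ND livers for atf6, and at 7.47 to 12.0 CPM in HFHC livers, against 6.47 to 10.99 CPM in ND livers for eif2ak3, which codes for PERK.

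PERK and amino acid shortage act through the transcription factor ATF4. The gene atf4b (chromosome 3, 24067386 to 24070271) had 88.6, 94.7, 76.8, 108 and 106 CPM in HFHC livers 1 to 5, against 58.5, 70.25, 68.2, 61.9 and 65.2 CPM in ND livers 1 to 5. All HFHC livers lay above all ND livers, and the log2 fold change was 0.55 ± 0.13 (SE, adjusted p = 0.14). Its paralog atf4a had 44.7, 59.3, 47.6, 40.2 and 47.8 CPM in HFHC livers 1 to 5, against 36.8, 44.4, 40.2, 51.2 and 42.5 CPM in ND livers 1 to 5, with overlapping groups and a log2 fold change of 0.16 ± 0.14 (SE, adjusted p = 0.655). Of 17 ATF4 targets tested, 12 were higher and 5 lower, 6 and 2 of them at an unadjusted p under 0.05 (47.1%, beside 7.89% of all genes higher and 6.17% lower), and the median log2 fold change was 0.24. These were 4 and 1 without HFHC liver 2. Beside ddit4 and atf4b itself, the higher genes were slc3a2b (an amino acid transporter subunit), atf3 and trib3 (stress regulators) and asns (asparagine synthetase), all with overlapping groups. The lower ones were sesn2, a stress sensor for which every HFHC liver was below every ND liver, with a log2 fold change of -0.92 ± 0.33 (SE, adjusted p = 0.272), and shmt2, a mitochondrial serine enzyme, with 25.2 to 52.2 CPM in HFHC livers, against 41.1 to 74.6 CPM in ND livers.

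Chaperones of the cytosol gave a share near that of all genes and the proteasome a lower one. Of 31 cytosolic heat shock and chaperonin genes, 2 were higher and 3 lower at an unadjusted p under 0.05 (16.1%, beside 14.1% of all genes), with a median log2 fold change of -0.12. The co-chaperone gene dnajb1b had 3.83, 4.51, 5.15, 6.99 and 5.91 CPM in HFHC livers 1 to 5, against 3.41, 1.93, 4.13, 2.18 and 3.23 CPM in ND livers 1 to 5, a log2 fold change of 0.83 ± 0.25 (SE, adjusted p = 0.224). Of 38 proteasome genes 0 reached that p in either direction (3 were higher without HFHC liver 1), and the median moved between 0.12 with and -0.03 without HFHC liver 2. The proteasome lid gene psmd12 had the smallest p, with 13.0 to 20.1 CPM in HFHC livers, against 11.3 to 15.3 CPM in ND livers. The segregase gene vcp, which pulls proteins out of the ER membrane, had 107 to 141 CPM in HFHC livers, against 83.2 to 124 CPM in ND livers and a log2 fold change of 0.23 ± 0.14 (SE, adjusted p = 0.488). The gene nfe2l1b, a membrane-bound activator of proteasome genes, had 8.93 to 14.6 CPM in HFHC livers, against 7.92 to 13.4 CPM in ND livers, with a log2 fold change of 0.17 ± 0.20 (SE, adjusted p = 0.735).

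Genes that break down amino acids were lower as a group. Of 35 genes of amino acid catabolism and the urea cycle, 31 were lower and 4 higher, with 19 lower and 0 higher at an unadjusted p under 0.05 (54.3%, beside 14.1% of all genes), and the median log2 fold change was -0.50. The median of the list was -0.47, -1.15, -0.36, -0.16 and -0.61 in HFHC livers 1 to 5, against 0.17, 0.00, 0.02, 0.04 and -0.21 in ND livers 1 to 5. HFHC liver 2 was lowest and HFHC liver 4 just above the lowest ND liver. Without HFHC liver 2 the median was -0.39 and 18 genes were lower at that p, beside 5.19% of all genes.

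In 5 of these genes the groups did not overlap (1.38% of all genes were lower without overlap). They were bhmt, described above, and GLDC, tat, ahcy and pah. The glycine decarboxylase gene GLDC (chromosome 5, 65491315 to 65523643) had 99.6, 23.9, 52.2, 64.5 and 60.4 CPM in HFHC livers 1 to 5, against 145, 197, 189, 214 and 191 CPM in ND livers 1 to 5, a log2 fold change of -1.64 ± 0.30 (SE, adjusted p = 0.0896). Tyrosine breakdown begins with tat, which had 381, 157, 303, 394 and 332 CPM in HFHC livers 1 to 5, against 783, 687, 578, 685 and 521 CPM in ND livers 1 to 5 and a log2 fold change of -1.05 ± 0.23 (SE, adjusted p = 0.126). Phenylalanine hydroxylase, coded by pah, makes tyrosine, and pah had 671, 218, 447, 744 and 589.8 CPM in HFHC livers 1 to 5, against 1704, 1022, 1104, 1029 and 846 CPM in ND livers 1 to 5. HFHC liver 2 was the lowest liver for all 3 genes. The gene ahcy, whose enzyme makes homocysteine from S-adenosylhomocysteine, had 4902, 3362, 4002, 4162 and 4147 CPM in HFHC livers 1 to 5, against 5021, 5843, 5801, 5792 and 6363 CPM in ND livers 1 to 5, so HFHC liver 1 was close to the ND livers.

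Further along the same routes, the homogentisate dioxygenase gene hgd had 537 to 1058 CPM in HFHC livers, against 1031 to 1346 CPM in ND livers. The aspartate aminotransferase gene got1 had 168, 59.3, 233, 227 and 73.8 CPM in HFHC livers 1 to 5, against 619, 523, 439, 292 and 214 CPM in ND livers 1 to 5, and the second glutamate dehydrogenase gene, glud1b, had 750.3 to 1493 CPM in HFHC livers, against 1373 to 2155 CPM in ND livers. The methionine cycle gene mat1a, whose enzyme makes S-adenosylmethionine, had 939.7, 417, 1321, 1703 and 1026 CPM in HFHC livers 1 to 5, against 2259, 1641, 1979, 1564 and 1352 CPM in ND livers 1 to 5. HFHC livers 1, 2, 3 and 5 were below every ND liver for mat1a and HFHC liver 4 was among them. The urea cycle genes otc and arg1 were at or near 0 in both diets, in HFHC livers up to 0.0938 CPM for otc.

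Of 59 respiratory chain genes 46 were lower and 13 higher, with a median log2 fold change of -0.13. At an unadjusted p under 0.05, 7 were lower and 0 higher (11.9%, beside 6.17% of all genes lower and 14.1% in either direction). In 4 of the 7, all subunits of ATP synthase (atp5b, atp5l, atp5a1 and atp5d), the groups did not overlap, which was so for 1.38% of all genes in that direction. The catalytic subunit gene atp5b (chromosome 11, 13150239 to 13155400) had 842, 730.3, 945, 739 and 756 CPM in HFHC livers 1 to 5, against 1057, 1149, 1046, 1245 and 1062 CPM in ND livers 1 to 5. The log2 fold change was -0.47 ± 0.12 (SE, adjusted p = 0.164). Without HFHC liver 2, the median of the list was -0.22 and 14 of the 59 genes were lower at that p, beside 5.19% of all genes. HFHC liver 2 had the highest median of its group (0.079, against -0.27 to -0.17 in the other 4 HFHC livers).

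Cytosolic ribosomal protein genes were lower in 81 of 83 cases, but by little. Their median log2 fold change was -0.15, and 4 were lower at an unadjusted p under 0.05 (4.82%, beside 6.17% of all genes that were lower at that p). Without HFHC liver 2 the median was -0.20 and 7 of the 83 were lower at that p, where 5.19% of all genes were. The liver medians of the groups overlapped, at -0.34 to 0.09 in HFHC livers and -0.20 to 0.13 in ND livers. The smallest p was that of rps28, with 333 to 440.1 CPM in HFHC livers, against 429 to 536 CPM in ND livers and a log2 fold change of -0.35 ± 0.13 (SE, adjusted p = 0.273).

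**Figure D4:**
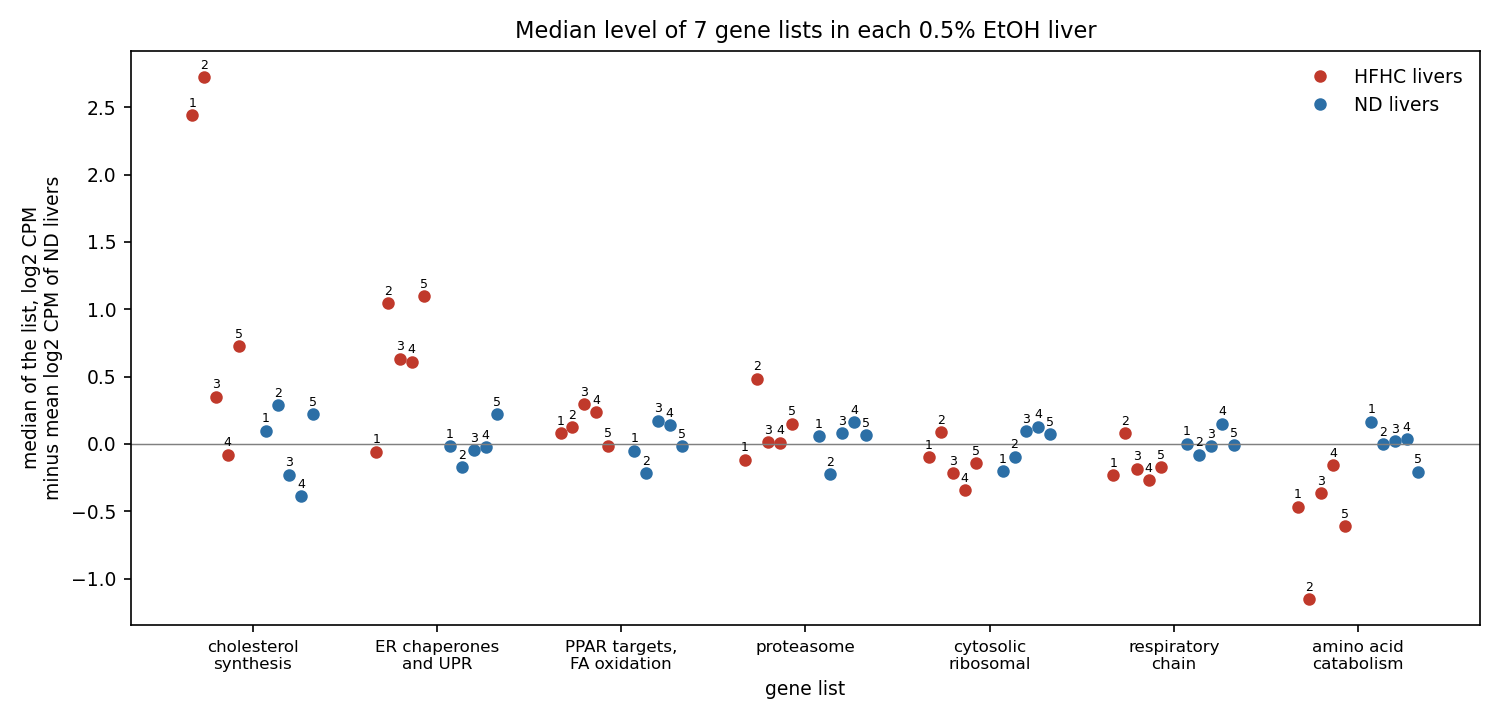
Median over the genes of 7 lists of log2 CPM minus the mean of the ND livers (y axis, log2), for each HFHC liver (red) and ND liver (blue), numbered by replicate. HFHC livers 1 and 2 are highest for cholesterol synthesis at 2.44 and 2.73, HFHC livers 2 and 5 for ER chaperones at 1.05 and 1.096, and HFHC liver 2 is lowest for amino acid catabolism at -1.15.

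Of 34 PPAR targets and fatty acid oxidation genes, 25 were higher and 9 lower, with 8 higher and 0 lower at an unadjusted p under 0.05 (23.5%, beside 14.1% of all genes) and a median log2 fold change of 0.17. The carnitine octanoyltransferase gene crot, which moves acyl chains out of peroxisomes, had 229.9, 209, 197, 216 and 186 CPM in HFHC livers 1 to 5, against 159, 159.7, 184, 165 and 165 CPM in ND livers 1 to 5. Its groups did not overlap and its log2 fold change was 0.32 ± 0.11 (SE, adjusted p = 0.264). In the other 7 genes HFHC liver 2, with the most intestine markers, was the highest of all 10 livers. They include pdk2a, a kinase that limits the use of pyruvate, with 125, 184, 148, 86.9 and 33.2 CPM in HFHC livers 1 to 5, against 50.4, 58.9, 55.4, 49.7 and 41.7 CPM in ND livers 1 to 5. Its log2 fold change was 1.17 ± 0.35 (SE, adjusted p = 0.219), or 0.94 without HFHC liver 2. The fatty acid binding protein gene fabp1b.1 had 0.862, 463, 99.0, 98.6 and 0.563 CPM in HFHC livers 1 to 5, against 15.4, 10.7, 12.7, 12.7 and 4.81 CPM in ND livers 1 to 5. Without HFHC liver 2 the list had 5 genes at that p and a median of 0.17. The part of intestinal RNA in these 7 genes was not tested.

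For fatty acid and triglyceride synthesis, 2 of 24 genes were higher and 1 lower at an unadjusted p under 0.05 (12.5%, beside 14.1% of all genes), and 4 and 3 without HFHC liver 1. The elongase gene elovl5 (chromosome 13, 2236616 to 2259761), which lengthens polyunsaturated fatty acids, had 65.5, 164, 132, 112 and 78.8 CPM in HFHC livers 1 to 5, against 44.8, 36.8, 58.2, 44.7 and 23.6 CPM in ND livers 1 to 5. The groups did not overlap, and the log2 fold change was 1.41 ± 0.29 (SE, adjusted p = 0.1), or 1.23 without HFHC liver 2. Malic enzyme, a source of NADPH for lipid synthesis, is coded by me1, which had 40.8, 291, 241, 241 and 154 CPM in HFHC livers 1 to 5, against 51.9, 57.1, 88.0, 96.4 and 135 CPM in ND livers 1 to 5. HFHC liver 1 was the lowest of the 10 and the other HFHC livers were the highest. The rate-limiting carboxylase gene acaca was lower, with 38.3 to 59.7 CPM in HFHC livers, against 39.8 to 171 CPM in ND livers.

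Among lipoprotein and bile acid genes, apoea and nr0b2a were highest in HFHC livers 2 and 3, while fgf19, described above, was lower in every HFHC liver than in any ND liver. Of 21 lipoprotein and lipase genes, 2 were higher and 2 lower at an unadjusted p under 0.05 (19.05%, beside 14.1% of all genes), and 4 and 1 without HFHC liver 1. The apolipoprotein E gene apoea (chromosome 19, 10936233 to 10940769) had 0.862, 1009.5, 208, 7.52 and 1.22 CPM in HFHC livers 1 to 5, against 0.597, 1.16, 0.504, 2.18 and 0.934 CPM in ND livers 1 to 5. The 2 highest livers were HFHC livers 2 and 3, the ones with the most intestine markers, and the log2 fold change was 7.82 ± 1.91 (SE, adjusted p = 0.153), or 5.66 without HFHC liver 2. The microsomal transfer protein gene mtp, needed to load lipoproteins with lipid, had 165 to 301 CPM in HFHC livers, against 165 to 215 CPM in ND livers, apoc2, the activator of lipoprotein lipase, had 1157 to 1672 CPM in HFHC livers, against 1468 to 2066 CPM in ND livers, and cetp, which exchanges cholesterol esters between lipoproteins, had 323 to 446 CPM in HFHC livers, against 383 to 576 CPM in ND livers. Of 15 bile acid genes, fgf19 was lower and nr0b2a higher at that p (13.3%), but nr0b2a did not reach it without HFHC liver 2. The gene nr0b2a codes for the repressor SHP, a target of the bile acid receptor in mammals, and had 6.23, 119, 19.6, 0.836 and 1.69 CPM in HFHC livers 1 to 5, against 2.47, 5.31, 1.11, 2.27 and 3.66 CPM in ND livers 1 to 5, again highest in HFHC livers 2 and 3. The bile acid enzyme gene cyp7a1 was at 0 in every HFHC liver and at most 0.302 CPM in an ND liver.

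Carbohydrate genes went both ways, with 2 of 24 higher and 3 lower at an unadjusted p under 0.05 (20.8%, beside 14.1% of all genes). These were 1 and 2 without HFHC liver 2 and 2 and 5 without HFHC liver 1. The glucose-6-phosphatase gene g6pca.2 (chromosome 12, 6007978 to 6014702), the last step of glucose release, had 1003, 2099, 1836, 2879 and 1507 CPM in HFHC livers 1 to 5, against 819, 1255, 1125, 860.0 and 1189 CPM in ND livers 1 to 5. HFHC liver 1 lay inside the ND range and the other 4 above it, with a log2 fold change of 0.83 ± 0.25 (SE, adjusted p = 0.222). The lower genes were the gluconeogenic fbp1b, with 739 to 2802 CPM in HFHC livers, against 1913 to 4218 CPM in ND livers, the glycogen synthase gene gys2, with 152 to 285 CPM in HFHC livers, against 235 to 317 CPM in ND livers, and the glycolytic gapdh, with 5242 to 7743 CPM in HFHC livers, against 6981 to 10191 CPM in ND livers. The lactate dehydrogenase gene ldha, the other higher gene, had 3.93, 122, 19.2, 2.36 and 2.91 CPM in HFHC livers 1 to 5, against 1.88, 2.51, 3.22, 2.82 and 4.46 CPM in ND livers 1 to 5 and a log2 fold change of 3.32 with and 1.26 without HFHC liver 2.

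Clock genes differed in both directions. Of 35 tested, 19 were higher and 16 lower, with 8 higher and 7 lower at an unadjusted p under 0.05 (42.9%, beside 14.1% of all genes) and a median log2 fold change of 0.08. In 6 the groups did not overlap: cry1bb, nfil3-6, nfil3-5 and nr1d2a were higher, and bhlhe40 and per1b were lower. Over all genes 1.6% were higher and 1.38% lower without overlap. Without HFHC liver 2, 8 clock genes were higher and 5 lower at an unadjusted p under 0.05, beside 6.37% and 5.19% of all genes. The nuclear receptor gene nr1d2a (chromosome 16, 49879775 to 49907024), a repressor of the clock activator arntl, had 287, 171, 409, 405 and 196 CPM in HFHC livers 1 to 5, against 26.1, 118, 106, 34.9 and 109.9 CPM in ND livers 1 to 5. ND livers 1 and 4 were far below the other ND livers, and the log2 fold change was 1.90 ± 0.44 (SE, adjusted p = 0.142). The repressor genes nfil3-6 and nfil3-5 had 83.7 to 112 CPM in HFHC livers, against 40.1 to 70.7 CPM in ND livers, and 8.21 to 13.9 CPM in HFHC livers, against 0.504 to 5.68 CPM in ND livers. The period gene per1b had 33.8, 18.8, 26.6, 31.8 and 26.1 CPM in HFHC livers 1 to 5, against 34.5, 53.0, 40.1, 38.1 and 40.8 CPM in ND livers 1 to 5. Other members lower at that p were cry5, cry2, per3, cry1aa and tefa, and the other higher ones were rorcb, arntl1a, cry4 and clocka.

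Within the insulin, IGF and glucocorticoid list, 7 of 30 genes were higher and 1 was lower at an unadjusted p under 0.05 (26.7%, beside 14.1% of all genes), and the median log2 fold change was 0.22. The adiponectin receptor gene adipor2 (chromosome 4, 8669746 to 8706545) had 86.6, 95.8, 105, 105 and 59.7 CPM in HFHC livers 1 to 5, against 35.8, 57.9, 39.3, 28.0 and 56.0 CPM in ND livers 1 to 5. The groups did not overlap, although HFHC liver 5 was close to the upper ND livers, and the log2 fold change was 1.06 ± 0.23 (SE, adjusted p = 0.118). The glucocorticoid-induced gene fkbp5, which codes for a receptor co-chaperone, had 618, 541, 605, 792 and 604 CPM in HFHC livers 1 to 5, against 122, 422, 381, 90.5 and 404 CPM in ND livers 1 to 5. As for nr1d2a, ND livers 1 and 4 were the lowest of the 10 and the other ND livers lay between them and the HFHC livers. The same pair was lowest for klf9, a glucocorticoid-induced transcription factor gene, with 33.1, 26.5, 38.5, 60.3 and 38.8 CPM in HFHC livers 1 to 5, against 5.03, 28.4, 25.5, 7.81 and 17.9 CPM in ND livers 1 to 5. The insulin receptor substrate gene irs2a had 6.67 to 15.6 CPM in HFHC livers, against 2.98 to 8.46 CPM in ND livers, and the kinase gene sgk1, the 1 lower gene, had 24.8 to 71.1 CPM in HFHC livers, against 42.9 to 167 CPM in ND livers.

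In the immune lists, 5 of 28 antigen processing and interferon genes were higher and 1 lower at an unadjusted p under 0.05 (21.4%, beside 14.1% of all genes). Without HFHC liver 2 these were 1 and 3, beside 6.37% and 5.19% of all genes. The invariant chain gene cd74b (chromosome 21, 33424025 to 33429516), a partner of MHC class II, had 31.8, 61.2, 23.9, 35.0 and 28.0 CPM in HFHC livers 1 to 5, against 18.7, 22.3, 21.9, 12.9 and 22.6 CPM in ND livers 1 to 5. The groups did not overlap, HFHC liver 2 was highest, and the log2 fold change was 0.87 ± 0.26 (SE, adjusted p = 0.211), or 0.60 without it. The class I gene mhc1uba had 253, 121, 319, 25.8 and 182 CPM in HFHC livers 1 to 5, against 10.6, 216, 32.1, 142 and 138 CPM in ND livers 1 to 5, with a wide spread in both diets and a log2 fold change of 0.74 ± 0.74 (SE, adjusted p = 0.697). The antiviral gene rsad2 was lower, with 3.88 to 15.1 CPM in HFHC livers, against 7.07 to 49.3 CPM in ND livers. Only 8 of 22 inflammation and leukocyte genes had enough counts. Among them the chemokine gene cxcl18b had 8.62, 4.25, 4.36, 3.42 and 6.28 CPM in HFHC livers 1 to 5, against 20.5, 13.8, 7.15, 13.3 and 10.1 CPM in ND livers 1 to 5 and a log2 fold change of -1.27 ± 0.31 (SE, adjusted p = 0.153), while nfkbiab, an inhibitor of NF-kB, had 53.1 to 128 CPM in HFHC livers, against 33.8 to 74.2 CPM in ND livers. Leukocyte markers summed to 21.4 to 63.6 CPM in HFHC livers and 15.0 to 38.5 CPM in ND livers, and their part in these genes was not tested.

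Of 47 complement, coagulation and acute phase genes 37 were higher and 10 lower, 6 and 0 of them at an unadjusted p under 0.05 (12.8%, beside 14.1% of all genes), with a median log2 fold change of 0.24. The fetuin gene ahsg2 had 2466, 2704, 2652, 1946 and 2163 CPM in HFHC livers 1 to 5, against 2184, 1842, 1573, 1513 and 964 CPM in ND livers 1 to 5 and a log2 fold change of 0.56 ± 0.20 (SE, adjusted p = 0.272). The antithrombin gene serpinc1 had 2440.0, 2611, 2269, 2515 and 3658 CPM in HFHC livers 1 to 5, against 2067, 2229, 1664, 1967 and 2124 CPM in ND livers 1 to 5 with no overlap, and HFHC liver 5 was highest. The liver medians of the list were -0.08 to 0.65 in HFHC livers and -0.05 to 0.12 in ND livers. The retinol carrier gene rbp4 had 5001, 2429, 1587, 3472 and 5578 CPM in HFHC livers 1 to 5, against 3861, 3730.1, 5714, 5959 and 5874 CPM in ND livers 1 to 5, a log2 fold change of -0.48 ± 0.31 (SE, adjusted p = 0.519), with HFHC livers 2 and 3 lowest.

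Of 21 iron genes, 1 was higher and 3 were lower at an unadjusted p under 0.05 (19.05%, beside 14.1% of all genes). The iron importer gene slc11a2 (chromosome 11, 262379 to 268216) had 56.7, 69.4, 62.8, 69.4 and 62.8 CPM in HFHC livers 1 to 5, against 85.7, 77.9, 79.6, 82.7 and 77.9 CPM in ND livers 1 to 5. Every HFHC liver was below every ND liver, with a log2 fold change of -0.33 ± 0.11 (SE, adjusted p = 0.242). The heme oxygenase gene hmox1a had 3.74, 2.86, 3.89, 5.93 and 0.469 CPM in HFHC livers 1 to 5, against 28.6, 31.4, 6.85, 25.6 and 0.575 CPM in ND livers 1 to 5, a pattern in which liver 5 of either diet was near 0. The iron hormone gene hamp (hepcidin) had 131, 6.85, 3.81, 31.2 and 245 CPM in HFHC livers 1 to 5, against 110.4, 52.7, 53.9, 136 and 68.9 CPM in ND livers 1 to 5. It varied far more inside each diet than between them, with a log2 fold change of -0.02 ± 0.88 (SE, adjusted p = 0.995). The transferrin gene tfa had 45225 to 67701 CPM in HFHC livers, against 26238 to 57232 CPM in ND livers, the ferritin gene fth1a had 138 to 487 CPM in HFHC livers, against 127 to 316 CPM in ND livers, and the iron exporter gene slc40a1 had 27.12, 92.8, 50.7, 34.3 and 14.4 CPM in HFHC livers 1 to 5, against 32.0, 29.1, 31.8, 33.1 and 31.3 CPM in ND livers 1 to 5. Their adjusted p-values were 0.403, 0.63 and 0.607. The log2 fold change of slc40a1 was 0.48 with and 0.01 without HFHC liver 2. The glycogenin gene gyg1a, which primes glycogen, had 33.1 to 49.1 CPM in HFHC livers, against 42.2 to 52.4 CPM in ND livers (adjusted p = 0.575).

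In the remaining lists, 2 of 39 genes of oxidative stress and xenobiotic metabolism were higher and 4 lower at an unadjusted p under 0.05 (15.4%, beside 14.1% of all genes). The 4 became 2 without HFHC liver 2 and 7 without HFHC liver 1, while the count of lower genes over all genes went from 758 to 648 and 891. The drug-metabolizing cytochrome gene cyp3a65 (chromosome 1, 58631257 to 58641843) had 352, 260.2, 178, 279 and 124 CPM in HFHC livers 1 to 5, against 505, 497, 545, 282 and 462 CPM in ND livers 1 to 5, so ND liver 4 lay among the HFHC livers, and its log2 fold change was -0.94 ± 0.27 (SE, adjusted p = 0.207). Of 29 extracellular matrix genes, 1 was higher and 2 were lower at that p (10.3%). One of the genes listed as col6a3 (ENSDARG00000077139), a collagen VI chain, had 12.0, 7.11, 11.9, 13.5 and 10.8 CPM in HFHC livers 1 to 5, against 13.2, 27.6, 15.5, 18.5 and 23.2 CPM in ND livers 1 to 5 and a log2 fold change of -0.83 ± 0.23 (SE, adjusted p = 0.197). Only 9 of 36 cell cycle genes had enough counts, and HFHC liver 2 stood apart, with a list median of 1.175 against -0.64 to -0.19 in the other 4 HFHC livers and -0.10 to 0.04 in ND livers. The median log2 fold change was 0.24, with 1 gene higher and 1 lower at an unadjusted p under 0.05 (22.2%), and without HFHC liver 2 it was -0.46, with 1 higher and 4 lower. Without HFHC liver 1 these were 4 and 1. The ribonucleotide reductase gene rrm1, needed for DNA synthesis, had 3.35, 9.19, 2.93, 2.74 and 4.13 CPM in HFHC livers 1 to 5, against 2.56, 1.74, 1.61, 1.82 and 1.44 CPM in ND livers 1 to 5 and a log2 fold change of 1.28 ± 0.36 (SE, adjusted p = 0.2), or 0.84 without HFHC liver 2. The replication clamp gene pcna had 3.93, 38.2, 4.04, 5.78 and 4.88 CPM in HFHC livers 1 to 5, against 4.52, 4.16, 5.14, 4.36 and 4.53 CPM in ND livers 1 to 5, that is, a high level in HFHC liver 2 alone.

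To ask whether this diet effect was particular to the 0.5% EtOH dose, it was set beside the diet effects in livers of fish exposed to 0% and 1% EtOH, which share no library with it. With the same test, the diet effect called 130 of 12303 genes at 0% EtOH (1.06%), 41 higher (0.333%) and 89 lower (0.723%), and 136 of 12622 genes at 1% EtOH (1.08%), 25 higher (0.198%) and 111 lower (0.879%). The median log2 fold change of cholesterol synthesis was -0.28 at 0% EtOH, 1.67 at 0.5% EtOH and 0.47 at 1% EtOH. For ER chaperones it was 0.14, 0.78 and 0.07, and for amino acid catabolism -0.14, -0.50 and -0.05, in the same order of doses. PPAR targets had 0.40, 0.17 and 0.35. These medians include the livers with much intestinal RNA, and the differences between them without those livers are given below. Pancreatic enzyme genes also differed by diet at the other doses, with medians of 646 CPM in HFHC livers and 12978 CPM in ND livers at 0% EtOH. At 1% EtOH the medians were 1163 and 10436 CPM, and at 0.5% EtOH 2146 and 1398 CPM. The part of pancreatic RNA in the differences between doses was not tested. At an adjusted p under 0.05, 0 genes of these 4 lists were called at 0.5% EtOH. Of the cholesterol and amino acid genes, 0 were called at 0% or 1% EtOH. Of 31 ER chaperone genes, 1 was called as higher at 0% EtOH. Of 34 PPAR targets, 0 were called at 0% EtOH and 4 as higher at 1% EtOH, beside 0.198% of all genes. For cholesterol, amino acid and ER chaperone genes these calls within single doses thus do not separate the doses. Calls from the direct test of the differences are given below.

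**Figure D5:**
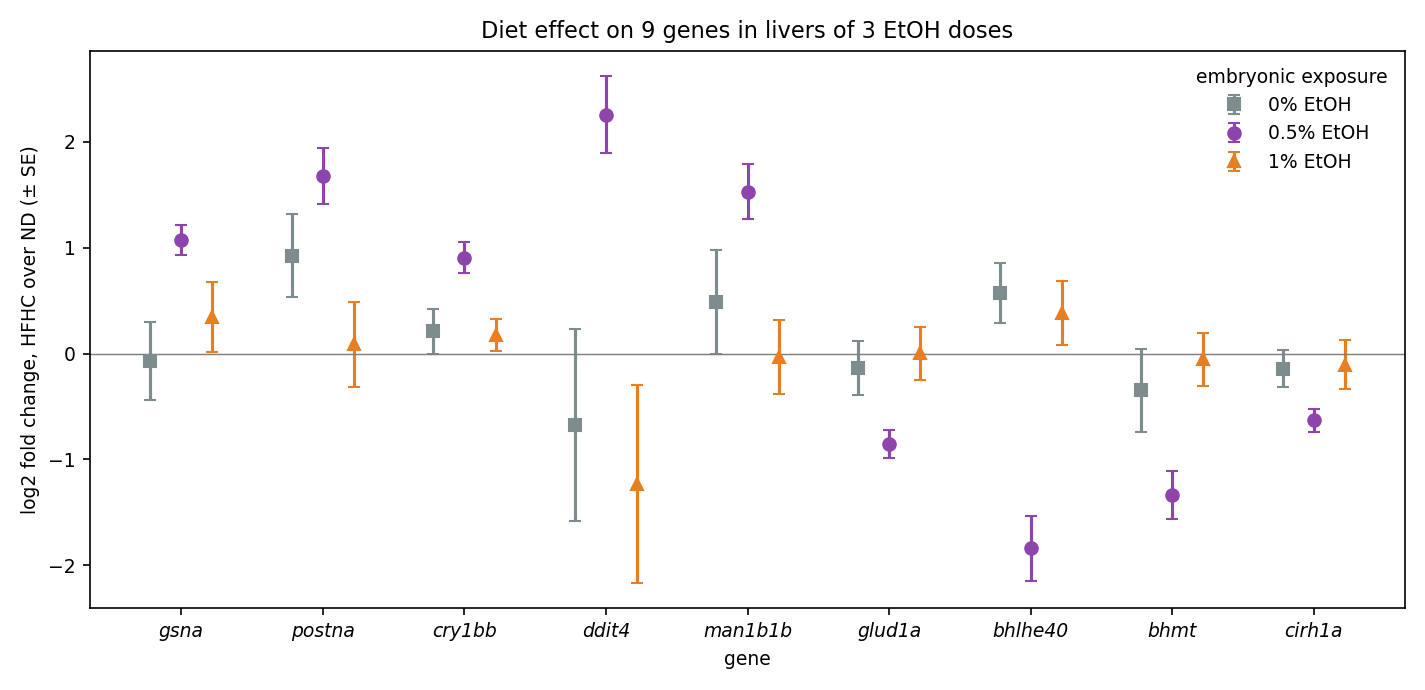
Log2 fold change of HFHC over ND livers, with SE, for 9 of the 10 genes with the smallest p-values at 0.5% EtOH, in livers of fish exposed to 0% (squares), 0.5% (circles) and 1% EtOH (triangles), 5 livers per diet and dose. The values at 0% and 1% EtOH lie nearer 0 than those at 0.5% EtOH for every gene shown. However, the genes were chosen by their p-values and lack of overlap at 0.5% EtOH, and livers with much intestinal RNA are included. Leaving out the 7 livers over 500 CPM of intestine markers keeps only ND livers 4 and 5 at 0% and ND livers 1 and 2 at 1% EtOH. Without the 7 livers, the difference of gsna from 0% EtOH fell from 1.096 to 0.214. Its difference from 1% EtOH fell from 0.713 to 0.0959. For postna the difference from 0% EtOH rose from 0.726 to 1.531.

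The differences between diet effects were then tested in 1 fit of all 30 livers, over 14225 genes. The diet effect at 0.5% EtOH differed from that at 0% EtOH for 1125 genes (7.91%), 989 (6.95%) with a more positive and 136 (0.956%) with a more negative effect at 0.5% EtOH. It differed from that at 1% EtOH for 372 genes (2.62%), 340 (2.39%) more positive and 32 (0.225%) more negative. Both counts were lower without the livers that held most intestinal RNA. The 7 livers whose intestine markers exceeded 500 CPM, a cut chosen after seeing the data, were HFHC liver 2 at 0.5% EtOH, ND livers 1, 2 and 3 at 0% EtOH and ND livers 3, 4 and 5 at 1% EtOH. Without them, the ND groups held only ND livers 4 and 5 at 0% EtOH and ND livers 1 and 2 at 1% EtOH. All results in the 23 livers thus rest on few ND livers at these doses. In the 23 livers that remain, edgeR called 0 of 14693 genes in either test, with 1069 and 1849 genes at an unadjusted p under 0.05 and smallest adjusted p-values of 0.147 and 0.0682, and DESeq2 called 32 and 111. Without HFHC liver 2 of the 0.5% EtOH group alone, edgeR called 376 genes against 0% EtOH and 0 against 1% EtOH, and DESeq2 called 817 and 264. At 0% and 1% EtOH the intestinal RNA was in ND livers and at 0.5% EtOH in an HFHC liver. The median difference from 0% EtOH was 1.63 for cholesterol synthesis, 0.73 for ER chaperones and -0.51 for amino acid catabolism in all 30 livers, and 0.97, 0.44 and -0.33 in the 23 livers. From 1% EtOH it was 1.42, 0.72 and -0.49 in all 30 livers, and 1.181, 0.93 and -0.504 in the 23 livers. For PPAR targets it was -0.23 from 0% EtOH and -0.22 from 1% EtOH in all 30 livers, and -0.17 and -0.33 in the 23 livers. Against 0% EtOH in all 30 livers, 8 of 22 cholesterol genes and 2 of 32 ER chaperone genes were called as more positive, beside 6.95% of all genes. Of 35 amino acid genes, 1 was called as more negative, beside 0.956% of all genes. Of 34 PPAR targets, 1 was called as more positive and 1 as more negative. Against 1% EtOH 0 genes of these lists were called, and in the 23 livers 0 against either dose. The 23 livers still include some with much pancreatic RNA. Pancreatic enzyme genes summed to 40052 CPM in ND liver 5 at 0% EtOH and 33627 CPM in ND liver 1 at 1% EtOH. That ND liver 1 at 1% EtOH also held 120 CPM of gonad markers.

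Of the genes with the smallest p-values in these tests, some had levels that followed the intestine markers. The acyl-CoA synthetase gene acsl5 had 0.403, 61.4, 10.1, 0.399 and 0.0986 CPM in HFHC livers 1 to 5 at 0.5% EtOH, against 0 to 0.227 CPM in the ND livers. At 0% EtOH it reached 478 CPM in ND liver 3, and at 1% EtOH 114 CPM in ND liver 5. Each of these livers carried over 500 CPM of intestine markers. The genes cuzd1.1 and sec14l8 showed the same pattern, with 165 and 19.4 CPM in HFHC liver 2 at 0.5% EtOH, 580 and 131 CPM in ND liver 3 at 0% EtOH and 334 and 96.9 CPM in ND liver 3 at 1% EtOH. No difference is given for these genes beyond their levels, since a fitted fold against groups at or near 0 depends on the prior count.

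Some differences were in genes with levels in every liver, though jund and ptpdc1b were in some groups highest in livers with much intestinal RNA. The transcription factor gene jund, part of AP-1, had 4.57 to 10.3 CPM in HFHC livers and 1.70 to 3.43 CPM in ND livers at 0.5% EtOH. At 0% EtOH it had 2.52 to 4.14 CPM in HFHC livers and 5.59 to 15.6 CPM in ND livers. The groups did not overlap at either dose, in opposite directions, and the difference of the diet effects was 3.01 ± 0.47 (SE, adjusted p = 0.0047) in all 30 livers and 2.34 (adjusted p = 0.147) in the 23 livers. Against 1% EtOH, with 3.20 to 7.23 CPM in HFHC livers and 5.80 to 14.3 CPM in ND livers there, it was 2.21 ± 0.47 (SE, adjusted p = 0.0126), and 1.53 (adjusted p = 0.144) in the 23 livers. The 10.3, 15.6 and 14.3 CPM of jund were in HFHC liver 2 at 0.5%, ND liver 3 at 0% and ND liver 5 at 1% EtOH. Each of these exceeded 500 CPM of intestine markers. So did ND liver 2 at 0% and ND liver 3 at 1% EtOH, with 12.8 and 10.2 CPM of jund. ND liver 1 at 0% and ND liver 4 at 1% EtOH did too, with 5.59 and 5.82 CPM. The ND livers with fewer intestine markers had 6.81 and 6.49 CPM at 0% and 5.85 and 5.80 CPM at 1% EtOH. HFHC liver 4 at 0.5% EtOH, with few intestine markers, had 9.81 CPM. The phosphatase-domain gene ptpdc1b had 4.24 to 5.82 CPM in HFHC livers and 2.44 to 4.74 CPM in ND livers at 0.5% EtOH, and 2.24 to 3.12 CPM in HFHC livers and 4.04 to 11.12 CPM in ND livers at 0% EtOH, with a difference of 1.95 ± 0.32 (SE, adjusted p = 0.0047). In the 23 livers the difference was 1.36 (adjusted p = 0.244). At 0% EtOH, ptpdc1b was highest in ND livers 1, 2 and 3, with 6.61, 8.34 and 11.12 CPM. These are the ND livers of that dose with over 500 CPM of intestine markers. How much of the differences of jund and ptpdc1b came from intestinal RNA was not tested.

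In the negative direction, bhlhe40 differed from both other doses. At 0.5% EtOH it had 27.8 to 66.9 CPM in HFHC livers and 96.7 to 225 CPM in ND livers, at 0% EtOH 81.8 to 201 CPM in HFHC livers and 54.4 to 141 CPM in ND livers and at 1% EtOH 56.3 to 115 CPM in HFHC livers and 35.4 to 100.3 CPM in ND livers. Only at 0.5% EtOH did the diets not overlap. The difference was -2.44 ± 0.46 (SE, adjusted p = 0.0047) from 0% EtOH and -2.24 ± 0.45 (SE, adjusted p = 0.0118) from 1% EtOH, and in the 23 livers -2.001 (adjusted p = 0.333) and -2.22 (adjusted p = 0.139). The corepressor gene irf2bp2b had 12.4 to 24.0 CPM in HFHC livers and 25.3 to 65.8 CPM in ND livers at 0.5% EtOH, with differences of -1.79 ± 0.33 (SE, adjusted p = 0.0047) and -1.57 ± 0.33 (SE, adjusted p = 0.0127). Its values in the 23 livers were -1.75 (adjusted p = 0.223) and -1.53 (adjusted p = 0.141). The nuclear receptor gene nr2f2 had 21.4 to 43.1 CPM in HFHC livers and 26.4 to 61.2 CPM in ND livers at 0.5% EtOH and 37.4 to 98.6 CPM in HFHC livers and 14.6 to 39.1 CPM in ND livers at 0% EtOH, a difference of -2.37 ± 0.44 (SE, adjusted p = 0.0047). For nr2f2 it was -1.86 (adjusted p = 0.324) in the 23 livers. The gene ogt.1, whose enzyme attaches O-GlcNAc to proteins, had 59.5 to 81.4 CPM in HFHC livers and 91.0 to 98.1 CPM in ND livers at 0.5% EtOH, 83.6 to 100.7 CPM in HFHC livers and 65.9 to 77.2 CPM in ND livers at 1% EtOH, and a difference of -0.69 ± 0.14 (SE, adjusted p = 0.0118). The diets did not overlap for ogt.1 at either of these doses, with HFHC livers lower at 0.5% and higher at 1% EtOH, and the difference in the 23 livers was -0.71 (adjusted p = 0.13).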

How the data were processed

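For the 30 livers the authors aligned single-end reads to GRCz10 with STAR (2.3 in the methods, 2.3 and 2.4 in the submitters' processing notes), counted them on exons of Ensembl 89 genes with htseq-count 0.6.0 and deposited these read counts, without normalization, for 25680 genes. The same tables hold the authors' log2 fold changes and p-values from DESeq2, which were not used, and 40 columns of size-factor counts, which were not used either. HFHC and ND livers of 0.5% EtOH lie in separate tables and were joined by Ensembl identifier. Positions are those of the tables. In them 20 symbols had become dates and 423 belonged to more than 1 gene, and such genes are named by identifier. Without stated strand use, overlapping and antisense genes cannot be told apart, and close paralogs may share reads.

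For the 10 livers, analysis used R 4.3.3 and edgeR 4.0.16 (filterByExpr, TMM, glmQLFit and glmQLFTest), limma 3.58.1 and DESeq2 1.42.0. P-values were adjusted over all genes tested by the Benjamini-Hochberg method, with a threshold of 0.05. The SE was derived from the fold change and its F statistic, as their ratio on the square-root scale of F. Differences between diet effects were contrasts in a fit of 6 groups, for which CPM was scaled over all 30 livers and so differs slightly. Sums of cell type markers, and levels of single marker genes given with them, are on this scale of 30 livers too. Recovery of known changes was tested on simulated data. Livers of a group differed far beyond counting error (chi-square per degree of freedom 26.8 to 92.2), so none was counted as a duplicate.

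The rule for named genes asked for up to 10 called genes per direction with groups that do not overlap, the same direction with each liver left out, and a symbol other than a clone name. As none was called, its fallback of the 5 per direction with the smallest p that met the other conditions was used. To these were added the member of each list with the smallest p, the genes the study names for adult livers, and for each difference of diet effects the 3 genes per direction with the smallest p. Further members were named for an unadjusted p under 0.05, or for contrast with these, after their values were seen. The result of 1 gene that this rule names is not reported here. The comparison, its members and the gene lists were chosen with earlier results of these data known. Alternatives were DESeq2, RLE scaling, limma with quality weights, no filter, at least 10 counts in every liver, a fold threshold, the replicate number as a block, other sets of livers in the fit, and each liver left out in turn.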

Additional observations from a re-analysis of the deposited data

Results flagged for a closer look

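Among 152 groups of 5 livers examined for a value far from the other 4, 6 had one, and chance gives about 1 in 20. Of the 6, 3 were from HFHC liver 2. In that liver bhmt had 1749 CPM, against 3667 to 4533 CPM in the other HFHC livers. Its median of the cell cycle list was 1.175 on the log2 scale relative to ND livers, against -0.64 to -0.19, and its median of the respiratory chain list was 0.079, against -0.27 to -0.17. The others were ND livers. For cyp3a65, ND liver 4 had 282 CPM, against 462 to 545 CPM in the rest. For vcp, ND liver 2 had 83.2 CPM, against 110.5 to 124 CPM, and the same liver had a proteasome median of -0.22, against 0.06 to 0.16.

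Of 41 named genes, which leave out those named by these differences, 9 had a diet effect at 0.5% EtOH that differed from that at 0% EtOH. This was in the fit of 30 livers, where 7.91% of all genes differed from 0% EtOH and 2.62% from 1% EtOH. Most of the 9 were named for small p-values in the same 0.5% EtOH livers, so the choice itself favoured such differences. Against 0% EtOH, the difference was -4.75 for fgf19 (adjusted p = 0.0406), with 0 to 0.399 CPM in HFHC and 1.81 to 3.10 CPM in ND livers at 0.5% EtOH and at most 0.698 CPM in any liver at 0% EtOH. It was -2.44 for bhlhe40 (adjusted p = 0.0047) and -2.24 against 1% EtOH (adjusted p = 0.0118). The fitted differences of apoea, 15.08 from 0% EtOH and 15.81 from 1% EtOH, were far larger, and its levels in the 0.5% EtOH livers and in ND livers of the other doses followed the intestine markers, at 1044 CPM in HFHC liver 2 at 0.5% EtOH and 7624 CPM in ND liver 3 at 0% EtOH.

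Against 0% EtOH the other differences were 2.50 for cd74b (adjusted p = 0.0121), -2.09 for cxcl18b (0.00936), 2.38 for rrm1 (0.019), 1.71 for adipor2 (0.0047), 0.70 for atf4b (0.0227) and 0.84 for nfe2l1b (0.0356), with each adjusted p in parentheses. Without the 7 livers whose intestine markers exceeded 500 CPM, none of the 9 genes had an adjusted p under 0.05 in edgeR. In those 23 livers the differences from 0% EtOH were 0.72 (adjusted p = 0.346) for atf4b, 1.04 (adjusted p = 0.269) for nfe2l1b and 1.178 (adjusted p = 0.422) for adipor2. They were 0.44 (adjusted p = 0.81) for cd74b, 1.196 (adjusted p = 0.729) for rrm1 and -1.47 (adjusted p = 0.557) for cxcl18b. For fgf19 the difference was -6.30 (adjusted p = 0.354) and for apoea 3.70 (adjusted p = 0.751), and that of bhlhe40 is given above. How much of each change came from fewer livers and how much from intestinal RNA was not tested.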

How the results depend on the processing

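In the 0.5% EtOH comparison edgeR called 0 genes at an adjusted p under 0.05, also with RLE scaling, no filter and at least 10 counts in every liver. The count was 350 with DESeq2, 12 with limma and quality weights (gsna, fgf19, man1b1b, GLDC, bhmt, ddit4, postna, cirh1a, slc12a7b, cry1bb, glud1a and bhlhe40) and 10 with all 30 livers in 1 fit. With 1 liver left out it ranged from 0 to 10, with 10 without HFHC liver 1 (among them calr, calr3b, pdia4 and GLDC) and 4 without HFHC liver 2 (bhmt, postna, ddit4 and man1b1b). The count at an unadjusted p under 0.05, added after the data were seen, ranged from 1341 to 1999 with 1 liver left out, and 427 of the 1727 genes also had a fold change over 2. With the replicate number as a block it called 1 gene, rgs2 (log2 fold change 3.34, adjusted p = 0.0151). The numbers gave little sign of paired livers, since same-numbered livers correlated above 0.1 in 1 of 5 pairs and only HFHC liver 5 matched its own number best. So few pairs cannot exclude a pairing. The block gave 194 and 121 genes for the differences from 0% and 1% EtOH. In that fit HFHC liver 6 at 0% EtOH, the only liver with its number, took up its own block term. The HFHC group at 0% EtOH thus rested on livers 1 to 4.

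The difference from 0% EtOH called 340 genes with at least 10 counts in every liver, 592 with the 20 livers of those doses alone and 0 without the 7 livers with intestinal RNA, a setting chosen after seeing the data. With 1 liver left out it ranged from 376 (without HFHC liver 2 at 0.5% EtOH) to 1606, with 567 without ND liver 3 at 0% EtOH. The difference from 1% EtOH called 688 genes with DESeq2 (1518 from 0% EtOH), 0 with at least 10 counts in every liver (1124 at an unadjusted p under 0.05) and 0 without the 7 livers, and ranged from 0 (without HFHC liver 2 at 0.5% EtOH) to 485. It was 208 to 240 without each of ND livers 1 and 3 at 0.5% EtOH and HFHC livers 2, 4 and 5 and ND livers 3 and 5 at 1% EtOH. Of 41 named genes, 24 passed 0.05 in at least 1 alternative, each of them with DESeq2, and the only change of direction was hamp, at -0.02 with all livers and 0.28, 0.29 and 0.19 without HFHC liver 2, 3 or 4 and 0.10 and 0.22 without ND liver 1 or 4, with -0.97 without HFHC liver 5 as the lowest value with 1 liver left out and -1.43 with the replicate number as a block. The causes were not tested. Genes at low CPM, such as fgf19 and postna, rest on few counts.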

Other observations

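Some genes called only under another setting had levels that set single livers apart, and they were looked up after these calls were seen. The transferrin receptor gene tfr1b, called without HFHC liver 1, had 609, 77.9, 105, 112 and 155 CPM in HFHC livers 1 to 5, against 503, 424, 305, 357 and 358 CPM in ND livers 1 to 5. HFHC liver 1 was the highest of all 10, while the other HFHC livers were below every ND liver, so its log2 fold change of -0.88 in the 10 livers became -1.79 without it. The kinase gene wee1, which delays entry into mitosis, had 6.13, 17.9, 14.1, 15.4 and 17.9 CPM in HFHC livers 1 to 5, against 5.97, 4.44, 4.13, 5.36 and 6.97 CPM in ND livers 1 to 5. HFHC liver 1 again lay with the ND livers and the other 4 HFHC livers above them, as for the ER chaperones. The protease inhibitor gene serpinb1 had 37.3, 286, 100.2, 121 and 129 CPM in HFHC livers 1 to 5, against 32.6, 14.2, 25.8, 20.3 and 15.2 CPM in ND livers 1 to 5, with no overlap and a log2 fold change of 2.64 ± 0.46 (SE, adjusted p = 0.0896). The signalling regulator gene rgs2 had 11.2, 31.2, 1.90, 1.82 and 19.5 CPM in HFHC livers 1 to 5, against 0.767, 3.09, 0.101, 0.272 and 2.37 CPM in ND livers 1 to 5.

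Among other cell types, bile duct markers summed to 922 to 1269 CPM in HFHC livers and 1187 to 1548 CPM in ND livers. This list holds cdh17 and cldn15la, which had 172 and 117 CPM in HFHC liver 2, the liver with the most intestine markers. In any other of the 10 livers they had at most 24.7 and 7.98 CPM. Adipocyte markers summed to 884 to 1808 CPM in HFHC livers and 1167 to 1611 CPM in ND livers. Most of this was lpl, with 842 to 1788 CPM in HFHC livers and 1127 to 1580 CPM in ND livers. The adipocyte markers plin1, adipoqa and adipoqb were each at 0 in 9 livers and at most 0.182 CPM in any liver. Red cell markers summed to 212 to 591 CPM in HFHC livers and 189.8 to 695 CPM in ND livers. Endothelial markers summed to 88.5 to 179.9 CPM in HFHC livers and 111 to 148 CPM in ND livers, stellate cell and fibroblast markers to 59.8 to 86.3 CPM in HFHC livers and 52.6 to 117.6 CPM in ND livers, islet markers to 1.28 to 6.36 CPM in HFHC livers and 1.44 to 41.4 CPM in ND livers, and the list of egg-yolk and estrogen genes, mostly vtg5, to 33.6 to 257.7 CPM in HFHC livers and 26.8 to 156.4 CPM in ND livers. Gonad markers summed to at most 2.87 CPM in HFHC livers and 4.03 CPM in ND livers.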
